A study of Mus musculus with 9 samples.

Results

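Cholesterol synthesis and uptake is represented here by 27 genes, chosen by name as 19 enzymes of the synthesis route, 5 regulators and 3 genes of cholesterol transport. They were taken from the 18327 genes that could be named on the array, through every probe whose RefSeq identifier maps to one of them. That gave 45 probes, 15 of the genes having several. All 45 probes passed the filter on dim probes, so all 27 genes were among the 14061 genes tested.

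The samples were cortical neurons of C57bl/6 mouse embryos at embryonic day 15, grown in culture for 12 days. Neurons were given 50 mM KCl for 6 h, given 25 µM bicuculline (Bic) for 6 h, or left without treatment (control), with 3 one-colour Agilent arrays in each group. Raised extracellular KCl depolarises neurons directly, and bicuculline blocks inhibitory GABA-A receptors and so leaves the synaptic network firing. The labels do not say whether the 3 arrays of a group came from separate cultures, so p-values here measure the spread between arrays, which may be technical.

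Cholesterol is built from acetyl-CoA in the endoplasmic reticulum and cytosol. The mevalonate steps make isoprenoid units, squalene is assembled from them and closed into the first sterol, lanosterol, and a series of demethylations, isomerisations and reductions then gives cholesterol. The route is set mainly by SREBP transcription factors: when sterols are low, SCAP carries SREBP from the endoplasmic reticulum to the Golgi, where it is cut and released to the nucleus, and when sterols are high, INSIG proteins hold the complex back. Brain cholesterol is made locally, since lipoproteins of the blood do not cross the blood-brain barrier, and astrocytes and oligodendrocytes are known for high synthesis.

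Promoters were searched for recognition sequences of factors known for this pathway, and 6 are shown, of genes whose values carry the results. RefSeq promoter windows on GRCm38.p6, from 250 bases before to 50 bases after a start site, were at hand for 22 of the 27 genes, 30 windows in all; Fdps, Fdft1, Sqle, Stard4 and Npc1 are named only. Hmgcs1 (chr13:119690101-119690400, + strand), Idi1 (chr13:8885356-8885655, + strand), Msmo1 (chr8:64733529-64733828, - strand) and Sc5d (chr9:42264251-42264550, - strand) were higher in KCl than in control neurons. By their brightest probes Mvk (chr5:114444019-114444318, + strand) and Nsdhl (chrX:72918271-72918570, + strand) were lower in KCl and Bic than in control neurons. The other Mvk probe was level under KCl. Capitals mark the motifs searched on both strands: TCACNCCAC, the core of the sterol regulatory element that SREBP binds, CCAAT, the box of NF-Y, a known partner of SREBP, CACGTG, the E-box, and TGACGTCA, the cAMP response element.
Hmgcs1: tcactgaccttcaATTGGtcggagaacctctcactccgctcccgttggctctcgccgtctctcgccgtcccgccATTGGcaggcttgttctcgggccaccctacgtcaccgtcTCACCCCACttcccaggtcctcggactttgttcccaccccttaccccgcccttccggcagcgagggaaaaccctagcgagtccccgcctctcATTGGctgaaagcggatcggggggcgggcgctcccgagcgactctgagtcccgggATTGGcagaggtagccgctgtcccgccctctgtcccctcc
Idi1: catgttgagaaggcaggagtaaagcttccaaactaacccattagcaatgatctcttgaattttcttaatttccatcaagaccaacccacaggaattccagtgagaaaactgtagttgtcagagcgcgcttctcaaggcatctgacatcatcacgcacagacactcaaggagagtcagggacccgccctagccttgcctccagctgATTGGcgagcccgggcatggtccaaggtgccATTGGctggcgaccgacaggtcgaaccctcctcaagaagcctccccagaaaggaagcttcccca
Msmo1: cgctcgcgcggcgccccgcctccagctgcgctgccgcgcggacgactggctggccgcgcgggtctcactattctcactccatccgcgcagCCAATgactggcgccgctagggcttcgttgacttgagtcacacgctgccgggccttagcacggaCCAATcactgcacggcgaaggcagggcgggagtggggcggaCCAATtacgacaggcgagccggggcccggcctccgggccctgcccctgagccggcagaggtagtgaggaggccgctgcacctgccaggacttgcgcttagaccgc
Sc5d: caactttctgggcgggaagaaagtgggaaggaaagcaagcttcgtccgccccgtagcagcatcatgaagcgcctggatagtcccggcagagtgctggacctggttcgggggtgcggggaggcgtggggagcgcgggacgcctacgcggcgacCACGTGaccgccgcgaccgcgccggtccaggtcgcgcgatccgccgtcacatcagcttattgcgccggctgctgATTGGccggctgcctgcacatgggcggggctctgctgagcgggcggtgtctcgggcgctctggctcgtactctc
Mvk: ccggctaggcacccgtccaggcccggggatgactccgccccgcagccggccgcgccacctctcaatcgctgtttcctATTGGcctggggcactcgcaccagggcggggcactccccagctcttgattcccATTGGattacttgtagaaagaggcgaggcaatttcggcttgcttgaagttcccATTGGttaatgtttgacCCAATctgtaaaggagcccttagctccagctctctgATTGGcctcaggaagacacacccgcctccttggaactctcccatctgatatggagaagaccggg
Nsdhl: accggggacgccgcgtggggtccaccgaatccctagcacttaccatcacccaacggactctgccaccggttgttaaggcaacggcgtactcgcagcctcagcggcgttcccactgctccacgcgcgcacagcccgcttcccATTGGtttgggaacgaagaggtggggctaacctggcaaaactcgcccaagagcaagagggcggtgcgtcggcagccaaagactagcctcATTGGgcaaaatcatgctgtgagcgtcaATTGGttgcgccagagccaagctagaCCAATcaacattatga
The CCAAT box was present in at least 1 window of 19 of the 22 genes, against 42.6% of the 11212 tested genes with a window and 37.4% of all 32851 windows. The 3 genes without one were Acat2, Scap and Abca1. Risen and fallen genes alike held it: the Hmgcs1 window has 4 copies, the Msmo1 window 3, the Mvk window 5 and the Nsdhl window 4. The sterol regulatory element core was found in 1 of the 22 genes, Hmgcs1, beginning 137 bases before the start site, against 1.49% of tested genes and 1.24% of all windows. The E-box was found in 6 of the 22 (Hsd17b7, Sc5d, Dhcr7, Insig1, Scap and Abca1), against 11.2% of tested genes and 7.15% of windows. The cAMP response element was found in 0 of the 22, against 3.46% of tested genes and 1.79% of windows. The motifs do not overlap in their letters, a gene with several windows had more chances to hold one, and a match is a description of the letters only. Only exact matches were counted, so a window without a match may still hold a variant of the motif.

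Levels below are relative signals, the processed signal of a probe divided by the 75th percentile of its array, and are comparable between arrays for 1 probe but not between genes. For a gene with several probes the brightest one is used unless another is named. Changes are log2 fold changes with limma's standard error (SE) from 1 fit over all 9 arrays, with p-values adjusted by the Benjamini-Hochberg method over the 14061 genes, and a gene is called higher or lower at an adjusted p under 0.05. The 75th percentile ran between 1586 and 3087 intensity units across arrays, 65% to 75.9% of spots were well above background and no spot was saturated. Genes known to be induced by neuronal activity were higher under both treatments: on the log2 scale Fos rose by 4.47 under KCl and 2.76 under Bic, Bdnf by 3.19 under KCl and 2.90 under Bic, and Npas4 by 4.32 under KCl and 0.86 under Bic. The arrays lay on 3 slides, with KCl 1, KCl 2, Bic 3 and control 3 on slide 2, Bic 1, Bic 2, control 1 and control 2 on slide 1, and KCl 3 alone on slide 3.

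KCl raised much of the pathway. Of the 27 genes, 16 were called higher and 5 lower in KCl than in control neurons, and 6 were not called, where 35.8% of all genes tested were higher and 36% lower. The median log2 fold change of the 27 genes was 0.50, beside 0.02 over all genes tested. Pmvk and Sc5d were the 2 genes raised at least 2-fold by their brightest probes, a size reached upwards by 5.85% of all genes. Under bicuculline 7 genes were higher and 7 lower than in control neurons and 13 were not called, where 17.4% of all genes were higher and 27% lower, so the count lower is near the share of all genes. The median was 0.01 beside -0.03 over all genes. In KCl against Bic neurons 19 genes were higher and 2 lower, where 36.1% of all genes were higher and 28.8% lower, with a median of 0.34 beside 0.07. The arrays of the compared groups did not overlap for 16 genes higher and 5 lower under KCl (37.2% and 37.6% of all genes), 8 higher and 9 lower under Bic (22.1% and 34.8%), and 19 higher and 2 lower in KCl against Bic (39.6% and 30.5%).

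The plot of fold changes in pathway order shows the 3 comparisons side by side. The comparisons with control share the control arrays. Among the 27 genes 7 were higher under both treatments (Hmgcs1, Pmvk, Cyp51, Msmo1, Hsd17b7, Sc5d and Insig1), where 13.4% of all genes were, and 4 were lower under both (Mvk, Mvd, Nsdhl and Dhcr7), where 19.4% were. A further 8 were higher under KCl and not called under Bic, Ggps1 was lower under KCl and not called under Bic, and Fdft1 and Srebf1 were lower under Bic and not called under KCl. Abca1 alone among the 27 was higher under KCl and lower under Bic, a pattern of 2.55% of all genes, and both of its calls were lost with normexp and with spike-in scaling. Tm7sf2, Insig2, Scap and Npc1 were not called in either comparison. With quantile normalization Fdft1, Srebf1 and Scap were called lower under KCl.

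**Figure D1:**
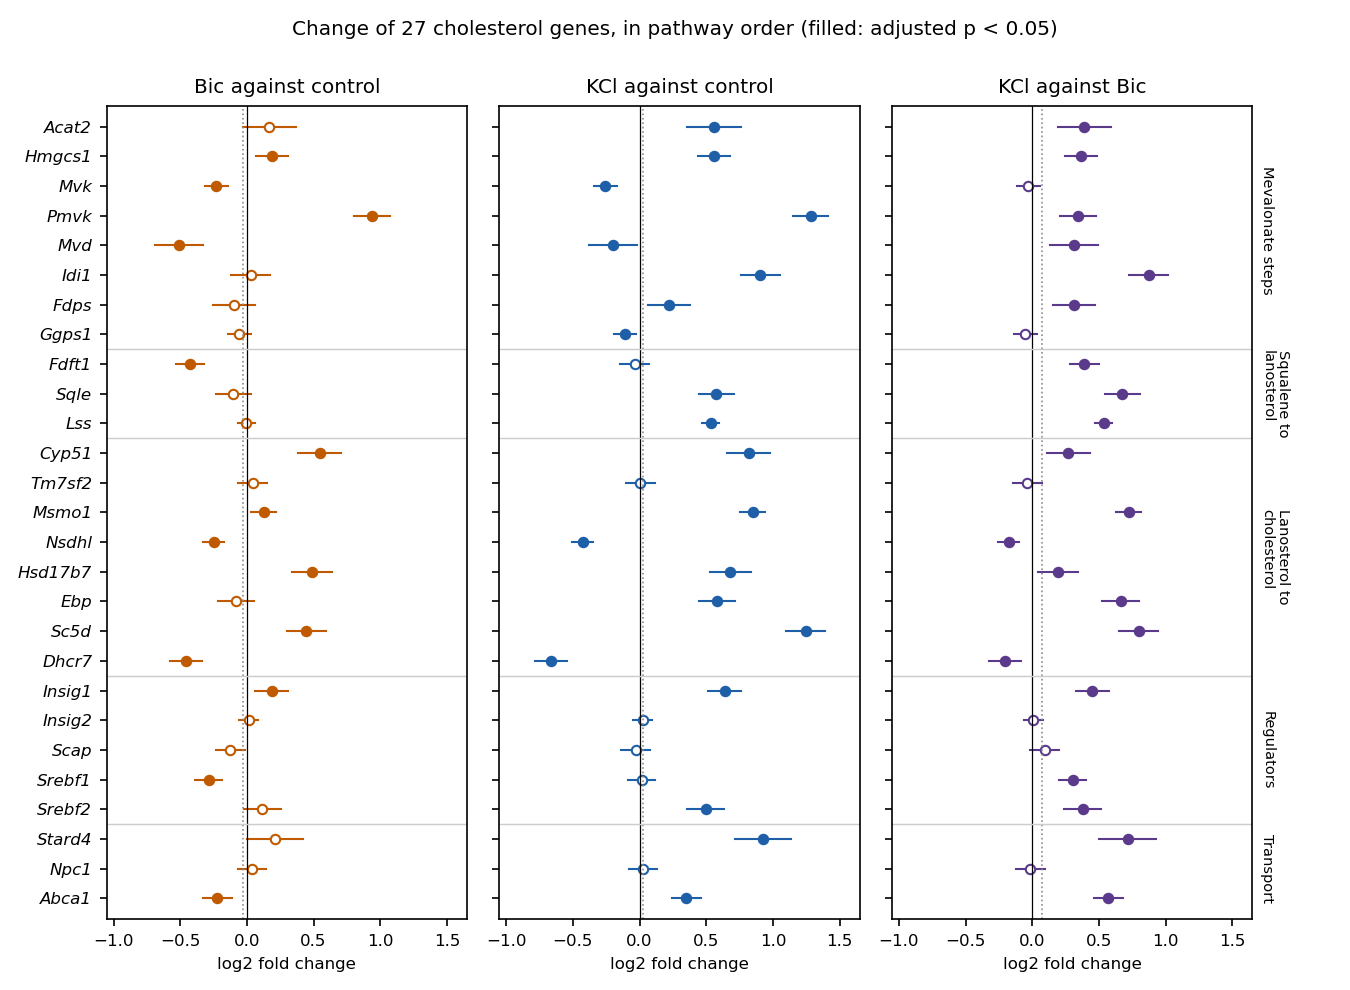
Log2 fold change (x axis) of the 27 cholesterol genes (y axis, in pathway order with the stage at the right) for Bic against control, KCl against control and KCl against Bic; points are limma estimates from 3 arrays per group, lines are 95% confidence intervals, filled points have an adjusted p under 0.05 and the dotted line is the median of all 14061 genes tested. In the middle panel 16 genes lie to the right of zero with filled points, reaching 1.28 for Pmvk, and Dhcr7 lies furthest to the left at -0.66.

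In the mevalonate steps, 5 of 8 enzymes were higher and 3 lower in KCl than in control neurons (35.8% and 36% of all genes). In Bic neurons 2 were higher and 2 lower (17.4% and 27% of all genes). The counts lower are near these shares. Pmvk, the phosphomevalonate kinase, showed the largest rise of the 27 genes under both treatments by the brightest probes (with the mean of probes, Stard4 rose more under KCl, 1.70 beside 1.30 for Pmvk). Its relative signal was 33.6, 31.0 and 36.1 on the KCl arrays, 26.7, 26.5 and 25.9 on the Bic arrays and 13.3, 14.3 and 13.6 on the control arrays. The 3 groups did not overlap, and the gene was 2.43-fold higher under KCl (log2 fold change 1.28, SE 0.057, adjusted p = 4.69e-07) and 1.92-fold higher under Bic (0.94, SE 0.057, adjusted p = 8.72e-06). Idi1, the isomerase that makes the second isoprenoid unit, separated the treatments. It measured 19.9, 17.4 and 20.5 under KCl, from 10.1 to 10.9 under Bic and from 10.0 to 10.6 in control neurons. KCl stood clear of both other groups, 1.87-fold above control (0.90, SE 0.063, adjusted p = 5.14e-06) and 1.83-fold above Bic (0.87, SE 0.063, adjusted p = 1.22e-05), while Bic and control overlapped (0.03, 95% interval -0.12 to 0.18).

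Hmgcs1, the cytosolic HMG-CoA synthase that feeds the route, measured 100.3, 102.7 and 96.9 under KCl, 77.1, 80.8 and 74.5 under Bic and 64.1, 72.3 and 67.6 in control neurons. The levels were ordered KCl, Bic, control without overlap. The rise was 1.47-fold under KCl (0.56, SE 0.052, adjusted p = 2.94e-05) and 1.14-fold under Bic (0.19, SE 0.052, adjusted p = 0.0199). With normexp background correction the KCl change was 0.34 (adjusted p = 0.118). Over its alternatives the KCl change ranged from 0.22 to 0.61 and its adjusted p from 5.47e-06 to 0.118. The Bic call was lost without Bic replicate 2 (adjusted p = 0.0679), control replicate 1 (0.0621) or control replicate 3 (0.0563), within a range of 0.0091 to 0.605 over its alternatives. Acat2, the thiolase of the first step, was 1.47-fold higher under KCl (0.56, SE 0.086, adjusted p = 0.000546). Under Bic it overlapped control (0.17, 95% interval -0.03 to 0.37), with an adjusted p from 0.0206 to 0.597 over its alternatives. Fdps, the farnesyl diphosphate synthase, rose 1.16-fold under KCl (0.22, SE 0.068, adjusted p = 0.0203) and was not called under Bic (-0.10). The KCl call was lost with quantile normalization, normexp, spike-in scaling and slide as a block. It was also lost without KCl replicate 1 (adjusted p = 0.061) or control replicate 2 (0.0567), within a range of 0.0154 to 0.632.

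The enzymes that fell sit among those that rose. Mvk, the mevalonate kinase one step before Pmvk, measured 1.36, 1.31 and 1.31 under KCl, 1.39, 1.37 and 1.29 under Bic and 1.553, 1.592 and 1.603 in control neurons. Both treatments lay below control without overlap (KCl -0.26, SE 0.037, adjusted p = 0.000352, and Bic -0.23, SE 0.037, adjusted p = 0.00151). On this brightest probe KCl and Bic did not differ beyond their spread (-0.03, 95% interval -0.11 to 0.06). The other Mvk probe was level under KCl (-0.0066). Mvd, the decarboxylase one step after Pmvk, measured 5.32, 4.73 and 5.46 under KCl, 4.29, 4.02 and 4.19 under Bic and 5.64, 6.59 and 5.62 in control neurons. Here Bic was the lowest group, 1.42-fold below control (-0.51, SE 0.077, adjusted p = 0.00114). The smaller KCl difference (-0.20, adjusted p = 0.0464) was not called with slide as a block (adjusted p = 0.132), with the replicate number as a block (0.0902) or without any one of 6 of the 9 arrays, among them KCl replicate 2 (0.143) and control replicate 2 (0.133), the range over its alternatives being 0.0144 to 0.143. Ggps1, which turns farnesyl diphosphate towards protein prenylation, was lower under KCl by its brightest probe (-0.11, SE 0.037, adjusted p = 0.0276) and higher by its other probe (0.22, adjusted p = 0.00121), so its direction is not settled.

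Squalene is made by Fdft1, oxidised by Sqle and closed to lanosterol by Lss, and these 3 genes took different courses under Bic. Fdft1 measured 18.01, 16.31 and 16.49 under KCl, 13.16, 12.58 and 12.99 under Bic and 17.2, 17.97 and 16.89 in control neurons. Bic was 1.34-fold below control (-0.43, SE 0.046, adjusted p = 0.000195), and KCl overlapped control (-0.04, 95% interval -0.14 to 0.07). With quantile normalization Fdft1 was called lower under KCl, its adjusted p ranging from 0.00185 to 0.976 over its alternatives. Sqle, a rate-controlling oxygenase of the route, measured 34.8, 31.6 and 36.4 under KCl, 22.0, 21.3 and 20.9 under Bic and 22.9, 23.9 and 22.1 in control neurons. It rose 1.49-fold under KCl (0.57, SE 0.056, adjusted p = 3.68e-05), and the Bic arrays lay just under the control arrays without a call (-0.10, adjusted p = 0.187). The KCl call of Sqle was lost with normexp (adjusted p = 0.0541). Lss rose 1.45-fold under KCl (0.53, SE 0.028, adjusted p = 1.16e-06), the tightest of the 27 estimates, with Bic at control level (-0.0029, 95% interval -0.07 to 0.06). All 3 genes were higher in KCl than in Bic neurons (0.39 for Fdft1, 0.68 for Sqle and 0.54 for Lss, the highest adjusted p being 0.000177, for Fdft1).

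Between lanosterol and cholesterol, 5 of 8 enzymes were higher and 2 lower in KCl than in control neurons (35.8% and 36% of all genes). In Bic neurons 4 were higher and 2 lower (17.4% and 27% of all genes), the count lower being near its share. Sc5d, the sterol desaturase that acts just before the last reductase, rose most. It measured 11.8, 10.3 and 11.7 under KCl, 6.21, 6.78 and 6.39 under Bic and 4.73, 4.96 and 4.53 in control neurons. The groups were ordered KCl, Bic, control without overlap, with a rise of 2.37-fold under KCl (1.25, SE 0.063, adjusted p = 9.1e-07) and 1.36-fold under Bic (0.45, SE 0.063, adjusted p = 0.00079). Msmo1, the methylsterol oxidase, measured 50.8, 48.6 and 51.6 under KCl, 30.8, 30.5 and 30.2 under Bic and 26.8, 29.3 and 27.8 in control neurons. Its rise under KCl was 1.80-fold (0.85, SE 0.041, adjusted p = 6.95e-07). Under Bic it was 1.09-fold (0.13, SE 0.041, adjusted p = 0.0373), a call lost with the replicate number as a block (0.0757, and 0.0728 in the 6 Bic and control arrays alone), with slide as a block (0.0607) and without any one of 6 arrays, KCl replicate 1 (0.0515) to control replicate 1 (0.117), the range over all its alternatives being 0.0151 to 0.927.

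Cyp51, the lanosterol demethylase, measured 3.15, 3.04 and 2.81 under KCl, 2.53, 2.58 and 2.34 under Bic and 1.846, 1.596 and 1.667 in control neurons. Both treatments were above control without overlap (KCl 1.76-fold, 0.82, SE 0.069, adjusted p = 1.57e-05; Bic 1.46-fold, 0.55, SE 0.069, adjusted p = 0.00043). Hsd17b7, the sterol ketoreductase, behaved in the same order, 1.60-fold above control under KCl (0.68, adjusted p = 3.45e-05) and 1.40-fold under Bic (0.49, adjusted p = 0.000614). Its KCl-against-Bic difference of 0.19 (adjusted p = 0.0319) did not pass once slide was a block (0.107), nor without Bic replicate 2 (0.102), Bic replicate 3 (0.0657), KCl replicate 1 (0.0932) or KCl replicate 3 (0.0519), within a range of 0.00249 to 0.896. Ebp, the sterol isomerase, rose under KCl (0.58, SE 0.059, adjusted p = 4.89e-05), a call lost with normexp (adjusted p = 0.118), and was not called under Bic (-0.08). Tm7sf2, one of the sterol reductases, stayed within its spread in both treatments (KCl 0.01, 95% interval -0.10 to 0.12; Bic 0.04, 95% interval -0.07 to 0.15).

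Dhcr7 and Nsdhl went the other way. Dhcr7, the reductase that completes cholesterol on the route through its dehydro precursor, measured 8.55, 7.45 and 8.22 under KCl, 9.34, 9.13 and 9.40 under Bic and 12.4, 13.0 and 13.0 in control neurons. KCl was lowest and control highest, with no overlap between any of the groups. The level was 1.58-fold lower under KCl (-0.66, SE 0.052, adjusted p = 1.05e-05) and 1.37-fold lower under Bic (-0.46, SE 0.052, adjusted p = 0.000246). Nsdhl, the sterol dehydrogenase that works with Msmo1 and Hsd17b7 in removing methyl groups, measured 2.65, 2.52 and 2.54 under KCl, 2.98, 2.88 and 2.85 under Bic and 3.51, 3.46 and 3.38 in control neurons. It was 1.34-fold lower under KCl (-0.43, SE 0.034, adjusted p = 1.22e-05) and 1.19-fold lower under Bic (-0.25, SE 0.034, adjusted p = 0.000682). By the brightest probes the 2 genes were also the only ones of the 27 called lower in KCl than in Bic neurons (Dhcr7 -0.20, adjusted p = 0.00937, and Nsdhl -0.18, adjusted p = 0.00252). Of the 3 Nsdhl probes 2 were called lower there, and so was the other Insig2 probe (-0.15). Within the methyl-removing trio Msmo1 and Hsd17b7 thus rose under KCl while Nsdhl fell.

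**Figure D2:**
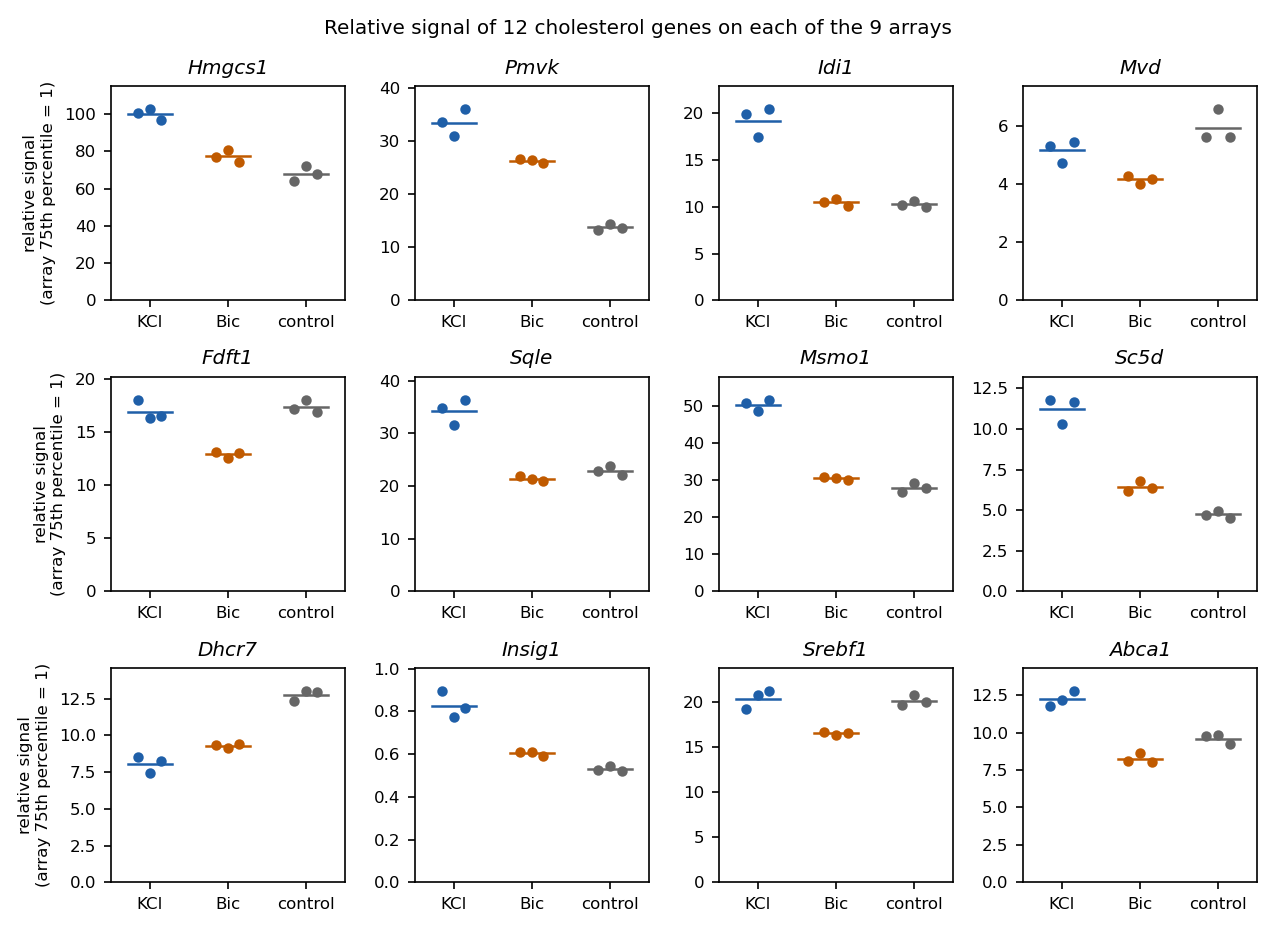
Relative signal (y axis, each array's 75th percentile set to 1, axes starting at 0) of 12 cholesterol genes on the KCl, Bic and control arrays (x axis); each point is 1 array and each bar the geometric mean of 3. Idi1 lies between 17.4 and 20.5 on the KCl arrays and between 10.0 and 10.9 on the other 6, and Dhcr7 is lowest on the KCl arrays, at 7.45 to 8.55.

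Among the regulators 2 of 5 were higher and 0 lower in KCl than in control neurons (35.8% and 36% of all genes). In Bic neurons 1 was higher and 1 lower (17.4% and 27% of all genes). The KCl count higher and both Bic counts are near these shares. Insig1, the SREBP target that retains SCAP in the endoplasmic reticulum, measured 0.896, 0.774 and 0.818 under KCl, 0.611, 0.612 and 0.593 under Bic and 0.528, 0.547 and 0.522 in control neurons. The order was KCl, Bic, control without overlap, 1.56-fold above control under KCl (0.64, SE 0.053, adjusted p = 1.45e-05) and 1.14-fold under Bic (0.19, SE 0.053, adjusted p = 0.0223). The Bic call was lost without Bic replicate 1 (adjusted p = 0.0619), Bic replicate 2 (0.0653), control replicate 1 (0.0627) or control replicate 3 (0.0701), within a range of 0.00541 to 0.258. Srebf2, which encodes the SREBP best known for cholesterol genes and is itself an SREBP target, measured 0.816, 0.801 and 0.767 under KCl, 0.616, 0.644 and 0.574 under Bic and 0.542, 0.606 and 0.545 in control neurons. It was 1.41-fold higher under KCl (0.50, SE 0.059, adjusted p = 0.000124), and Bic and control overlapped (0.12, adjusted p = 0.154).

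Srebf1, whose product is best known for fatty acid genes, followed another course. It measured 19.2, 20.8 and 21.3 under KCl, 16.7, 16.4 and 16.6 under Bic and 19.69, 20.84 and 19.99 in control neurons. Bic was the low group, 1.22-fold below control (-0.29, SE 0.043, adjusted p = 0.00114). KCl overlapped control (0.02, 95% interval -0.08 to 0.12). That KCl difference was -0.17 with quantile normalization, where it was called lower. It was -0.13 with spike-in scaling and -0.08 with normexp background correction. Its adjusted p ranged from 0.00633 to 0.999 over its alternatives. Scap, the carrier of SREBP, was not called under KCl (-0.03) or Bic (-0.12, adjusted p = 0.0643), and with slide as a block the Bic difference was called (adjusted p = 0.0329, within a range of 0.0224 to 0.978). With quantile normalization Scap was called lower under KCl, its adjusted p ranging from 0.00233 to 0.991 over its alternatives. Insig2, the second retention protein, was level on its brightest probe (KCl 0.02, 95% interval -0.05 to 0.09; Bic 0.01, 95% interval -0.06 to 0.08).

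The 3 transport genes differed from one another. Stard4, which shuttles cholesterol between membranes and is a known SREBP target, measured 6.09, 5.11 and 6.05 under KCl, 3.13, 3.82 and 3.56 under Bic and 3.11, 2.89 and 3.08 in control neurons. It rose 1.90-fold under KCl (0.92, SE 0.091, adjusted p = 3.88e-05), and under Bic it was just above control without a call (0.21, adjusted p = 0.101). Abca1, the exporter that loads cholesterol onto lipoprotein particles and a known target of the oxysterol receptors LXR, measured 11.8, 12.2 and 12.8 under KCl, 8.07, 8.63 and 8.03 under Bic and 9.78, 9.82 and 9.21 in control neurons. KCl lay above control (0.35, SE 0.046, adjusted p = 0.000219) and Bic below it (-0.22, SE 0.046, adjusted p = 0.00577), and KCl exceeded Bic by 1.49-fold (0.57, SE 0.046, adjusted p = 2.24e-05). The KCl call was lost with normexp (0.10, adjusted p = 0.671) and with spike-in scaling (0.20, adjusted p = 0.116), within a range of 0.000232 to 0.671. The Bic call was lost with normexp (-0.24, adjusted p = 0.628) and with spike-in scaling (-0.20, adjusted p = 0.225), within a range of 0.00512 to 0.628. Npc1, which releases cholesterol from late endosomes and lysosomes, did not move beyond its spread (KCl 0.02, 95% interval -0.08 to 0.13; Bic 0.04, 95% interval -0.07 to 0.15).

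The 45 probes, which include the 27 brightest ones, gave much the same account as the brightest probes alone in the comparisons with control. In KCl against control 27 probes were higher and 9 lower, where 36.8% of the 20990 named probes kept were higher and 34.4% lower, and in Bic against control 12 were higher and 11 lower, where 18.1% were higher and 24.7% lower. Setting KCl against Bic, 31 probes were higher and 5 lower, where 36% were higher and 27.2% lower. Of the 15 genes with several probes, 11 had the same call on all their probes under KCl and 13 under Bic. In KCl against Bic 9 of the 15 did. The 2 probes of Pmvk rose by 1.28 and 1.32 under KCl and the 3 probes of Nsdhl were all lower under both treatments, by -0.43, -0.48 and -0.48 under KCl. Stard4 showed the widest gap: its 2 dimmer probes rose by 2.09 and 2.08 under KCl, against 0.92 on the brightest. On the first of them the relative signal was 1.47, 1.22 and 1.34 under KCl, 0.347, 0.384 and 0.377 under Bic and 0.353, 0.278 and 0.315 in control neurons. The dimmer probes of Cyp51 (1.13 and 1.17 against 0.82) and Insig1 (0.95 against 0.64) also gave larger KCl changes.

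Probes disagreed on the call for Mvk, Ggps1, Insig2 and Srebf2 under KCl and for Hmgcs1 and Fdft1 under Bic. In KCl against Bic they disagreed for Mvk, Ggps1, Fdft1, Nsdhl, Insig2 and Srebf2. The other Mvk probe was level under KCl (-0.0066) and lower under Bic (-0.15, adjusted p = 0.0209). It was called higher in KCl than in Bic neurons (0.14, adjusted p = 0.0173). The Insig2 probe listed under a different transcript was lower under KCl (-0.28, adjusted p = 0.000737), with 0.979, 0.955 and 0.983 on the KCl arrays against 1.26, 1.14 and 1.14 on the control arrays. The dim probe of Srebf2 was not called under KCl (0.13, adjusted p = 0.546). The dim probe of Fdft1 was called neither under KCl (0.27, adjusted p = 0.0982) nor under Bic (-0.010, adjusted p = 0.96, beside -0.43 on the brightest), and the other Hmgcs1 probe was not called under Bic (0.15, adjusted p = 0.151, beside 0.19). These probe values come from a fit over the 20990 named probes kept.

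**Figure D3:**
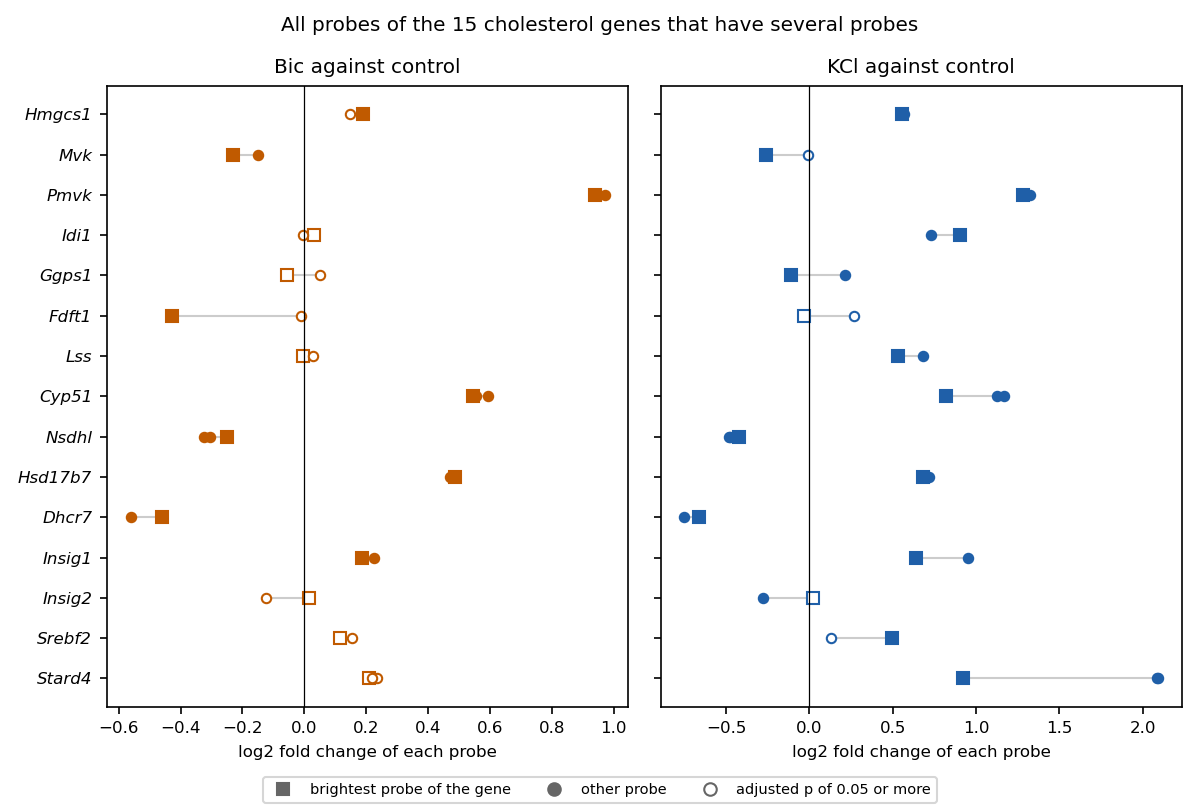
Log2 fold change (x axis) of every probe of the 15 cholesterol genes with several probes (y axis), for Bic against control at the left and KCl against control at the right; squares are the brightest probe of a gene, circles the others, and open symbols have an adjusted p of 0.05 or more. The probes of Pmvk lie together at 1.28 and 1.32 under KCl, and those of Stard4 spread between 0.92 and 2.09.

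The shares of all genes that stand beside the counts of the other gene lists are 35.8% higher and 36% lower under KCl, 17.4% and 27% under Bic, and 36.1% and 28.8% in KCl against Bic. Of 15 fatty acid genes known as SREBP targets, 7 were higher and 2 lower in KCl than in control neurons, with a median of 0.11. The largest rises were small, 0.29 each for Fasn, the fatty acid synthase, and Elovl5, an elongase, and Mid1ip1 (-0.21) and Acss2 (-0.11) fell. In Bic neurons 0 were higher and 5 lower by limma, with a median of -0.09, Elovl6 (-0.36) and Acaca (-0.30), an elongase and the acetyl-CoA carboxylase, falling most. Setting KCl against Bic neurons, 10 were higher and 0 lower.

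Of 21 tested genes of sterol transport and turnover, 10 were higher and 9 lower under KCl, and 5 were higher and 11 lower under Bic. Gramd1b, which moves cholesterol from the plasma membrane to the endoplasmic reticulum, rose by 1.96 under KCl and 1.25 under Bic. Soat1, which esterifies cholesterol for storage, rose by 1.46 under KCl, and Ch25h, which makes an oxysterol, by 0.91 under Bic. Lrp8, a lipoprotein and reelin receptor, fell by 1.31 under KCl. Mylip, an LXR target whose product degrades lipoprotein receptors, fell by 0.90 under KCl and 0.64 under Bic, and Abcg1, an exporter under LXR control, fell by 0.84 under Bic. In KCl against Bic neurons 11 were higher and 5 lower, with Soat1 (1.08) and Gramd1b (0.71) highest and Lrp8 (-0.78) and Mbtps1 (-0.27), a protease that cuts SREBP, lowest.

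The next list covers the use of isoprenoids for prenylation, dolichol and ubiquinone. Under KCl 2 of its 11 tested genes were higher and 8 lower, with a median of -0.38, Pdss1 (-0.96) and Coq2 (-0.57) of ubiquinone synthesis lowest and Rabggtb (0.40) and Rce1 (0.18) higher. Under Bic 0 were higher, 4 lower and 7 not called, Rabggta (-0.31) and Fntb (-0.25) among them, and in KCl against Bic neurons 1 was higher and 8 lower. Of 5 further genes of sterol reduction and of the turnover of sterol-regulated proteins, Erlin1 (0.46) and Lbr (0.17) were higher and Erlin2 (-0.20) lower under KCl, and Erlin1 (0.36) was higher and Erlin2 (-0.25) lower under Bic.

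**Figure D4:**
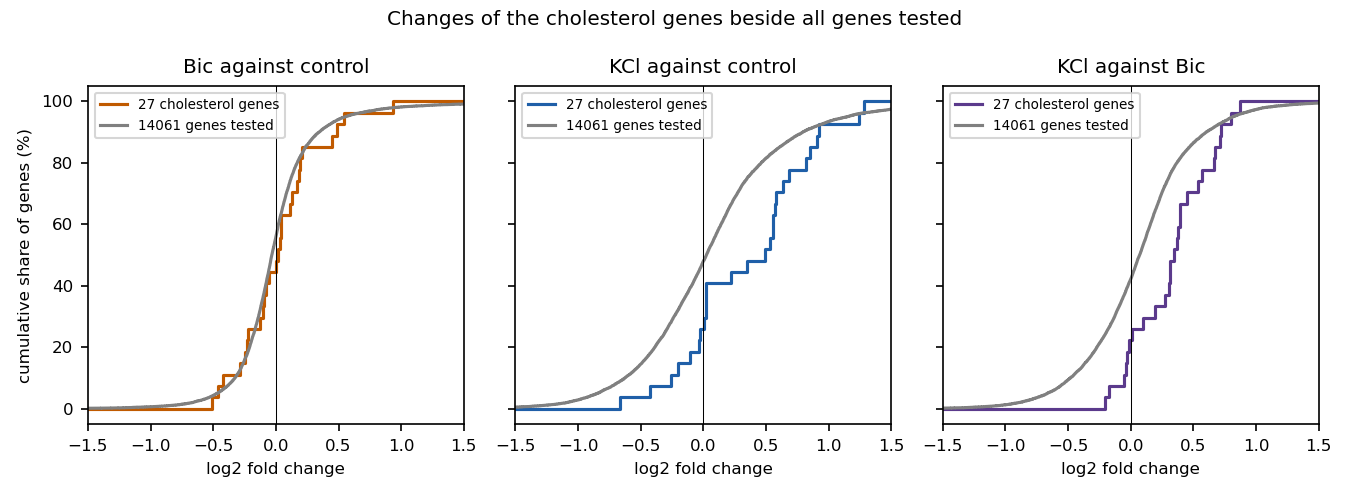
Cumulative share of genes (y axis, percent) by log2 fold change (x axis, shown from -1.5 to 1.5) for the 27 cholesterol genes in colour and the 14061 genes tested in grey, in each of the 3 comparisons. The curves lie close together for Bic against control (medians 0.01 and -0.03), and the cholesterol curve lies to the right for KCl against control (0.50 and 0.02) and KCl against Bic (0.34 and 0.07).

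Summed marker signals of neurons and of the other cell types were higher under KCl, where 35.8% of all genes were called higher and 36% lower. A sum adds signals that are not comparable between genes, so a bright gene can carry it. The summed relative signal of 9 astrocyte markers, all well above background on every array, was 171.7 to 180.8 on the KCl arrays, 152 to 154.5 on the Bic arrays and 151 to 163.6 on the control arrays, and 4 of the 9 were higher and 2 lower under KCl. That of 10 oligodendrocyte markers was 37.3 to 37.9 on the KCl arrays, 31.3 to 32.6 on the Bic arrays and 32.7 to 34.0 on the control arrays, with 7 of 9 tested higher and 2 lower under KCl, and Mog was not well above background on any array. Vascular and fibroblast markers summed to 42.8 to 47.5 on the KCl arrays, 23.8 to 26.2 on the Bic arrays and 24.2 to 25.5 on the control arrays. Under KCl 4 of the 6 tested were higher, 1 of them at least 2-fold, and 1 was lower, with a median log2 fold change of 0.30. Pecam1 and Cdh5 were never well above background. Microglial markers summed to 1.78 to 2.71 under KCl, 1.26 to 1.84 under Bic and 1.52 to 1.64 in control neurons, with 2 of 4 tested higher and 0 lower under KCl by limma. Cycling and progenitor markers summed to 21.3 to 22.5 under KCl, 17.1 to 17.8 under Bic and 18.8 to 19.4 in control neurons, while 2 of the 7 were called higher and 5 lower under KCl, with a median of -0.20. The 9 neuronal markers, all well above background on every array, summed to 115.9 to 121.4 under KCl, 112.3 to 114.3 under Bic and 111.2 to 114.2 in control neurons, with 6 of the 9 higher and 1 lower under KCl. The part of these cells in the cholesterol results was not tested. In these bulk samples a change in the number of cells of a type and a change in RNA per cell cannot be told apart.

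Within-slide differences are given for the largest changes; since the arrays of the compared groups do not overlap for any called gene, their sign within a slide is fixed. Under Bic, Pmvk differed from control by 0.95 on slide 1 (2 Bic against 2 control arrays) and 0.92 on slide 2 (1 against 1), and Dhcr7 by -0.46 on each. Under KCl, on slide 2 (2 KCl arrays against 1 control array), the difference was 1.24 for Pmvk, 1.28 for Sc5d, 0.89 for Idi1 and -0.70 for Dhcr7. With slide as a block the counts higher and lower were 15 and 3 under KCl, 6 and 8 under Bic, and 17 and 2 in KCl against Bic. KCl 3 is alone on slide 3, so with this block the KCl differences rest on KCl 1 and KCl 2.

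Calls differed in how far they held under other processing. Over 8 other settings and 9 fits without 1 array, 3 of the 7 genes higher under Bic (Pmvk, Cyp51 and Hsd17b7) and 0 of the 7 lower kept their call throughout, the 7 calls lower being lost together under normexp background correction, where the count was 3 higher and 0 lower. Their changes stayed about as large there, for example -0.45 for Mvd, -0.42 for Fdft1, -0.45 for Dhcr7 and -0.23 for Nsdhl. Over 7 other settings and the same 9 fits, 11 of the 16 genes higher under KCl (Acat2, Pmvk, Idi1, Lss, Cyp51, Msmo1, Hsd17b7, Sc5d, Insig1, Srebf2 and Stard4) and 3 of the 5 lower (Mvk, Nsdhl and Dhcr7) kept theirs. In KCl against Bic this held for 6 of 19 higher (Idi1, Lss, Msmo1, Sc5d, Insig1 and Stard4) and 2 of 2 lower. Calls were gained as well. Under Bic, Acat2, Stard4 and Srebf2 were each called higher in an alternative fit (lowest adjusted p = 0.0206, 0.0354 and 0.0479).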

How the data were processed

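Per the labels' protocols, Cyanine 3 labelled RNA was hybridised to 1-colour Agilent mouse arrays. Analysis began from the processed signal, an intensity that the authors deposited for every spot. Agilent Feature Extraction had produced it by subtracting background, without scaling arrays to one another (10.7.3.1 according to the headers of the files, 10.5.1.1 according to the submitters' processing notes). The deposited series values equalled it on all 45018 features of each array. No coordinates were taken from these files.

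This signal was put on the log2 scale and each array's 75th percentile over 43379 non-control spots subtracted. Spots marked as outliers were left out (39 values among the genes tested, 0 of the cholesterol genes) and spots of one probe averaged. Of 41174 probes, 26888 matched a symbol through their RefSeq accessions (table of GRCm38.p6). A probe stayed in if 1 or more groups had it well above background on all their arrays and each group had 2 or more measured arrays, and the brightest kept probe stood for a gene. The test was limma 3.58.1 (R 4.3.3), all 9 arrays in 1 fit with group as the only term, two-sided, at an adjusted p under 0.05; n is 3 arrays per group, and their number limits the precision. The median SD between replicates was 0.0574 on the log2 scale, with 6 residual and 1.76 prior degrees of freedom. The fit was tested on simulated data.

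Samples were grouped by the labels. Deviations from the group means correlated at 0.401, 0.259 and 0.742 for Bic and control arrays of equal replicate number, which also share slides. Unequal numbers on slide 1 correlated at 0.335 (Bic 2 with control 1) and 0.163 (Bic 1 with control 2). Pairing by number and a shared slide thus cannot be told apart. KCl arrays share no slide with arrays of equal number (-0.186, -0.151 and -0.572 with control, and -0.0878, -0.193 and -0.567 with Bic). On slide 2, KCl 1 and KCl 2 correlated with control 3 at 0.269 and 0.316, and KCl 3, on another slide, with control 1 at 0.411. Alternatives were quantile normalization, normexp (offset 50) on the deposited raw median and background intensity, spike-in scaling (224 spots), no dim-probe filter, the mean of a gene's probes, slide or replicate number as a block, and each array left out; the replicate block within the 6 Bic and control arrays was added after seeing the data. The members, lists and tests were chosen with earlier results of these data known. All 27 members are named; of other lists the 2 largest called changes in each direction are. Some genes of these lists are not reported here. Promoter windows come from RefSeq (GRCm38.p6).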

Additional observations from a re-analysis of the deposited data

How the results depend on the processing

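With 14061 genes tested in each setting except no dim-probe filter (18327), the counts for the 27 genes moved as follows. Under Bic, 7 higher and 7 lower became 5 and 8 with quantile normalization, 3 and 0 with normexp (822 genes called in all, of 6245), 4 and 3 with spike-in scaling (2398 in all) and 6 and 7 with the replicate block. Under KCl, 16 higher and 5 lower became 15 and 8 with quantile normalization, 11 and 3 with normexp (4150 in all, of 10099), 14 and 5 with spike-in scaling, 15 and 3 with slide as a block and 16 and 3 with the replicate block. In KCl against Bic, 19 higher and 2 lower became 17 and 3 with quantile normalization, 7 and 2 with normexp (2439 in all, of 9124), and 9 and 2 with spike-in scaling (5923 in all). Spike-in scaling moved the median of all genes under KCl to -0.127, against 0.0243. The cholesterol median minus that of all genes was 0.471 in both. That equality was fixed in advance, since both scalings subtract a constant from each array. The difference was 0.277 with quantile normalization and 0.262 with normexp. The share of called genes that were higher was 39.2% for Bic (58.9% with normexp, 54.5% with spike-in scaling), 49.9% for KCl (32.8% with spike-in scaling) and 55.6% for KCl against Bic (43%, 45.1% and 26% with quantile, normexp and spike-in scaling). Without 1 array, the counts higher and lower ranged over 4 to 9 and 7 to 8 for Bic (4 higher without Bic replicate 2, control replicate 1 or control replicate 3), 15 to 16 and 3 to 4 for KCl (3 lower without KCl replicate 2), and 18 to 19 and 2 to 2 for KCl against Bic.

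Apart from Ggps1 under KCl (0.053 with the mean of its probes), each reversal was of a gene not called as reported. With the mean of probes these were Fdft1 (0.116), Insig2 (-0.127) under KCl, Ggps1 (0.056), Insig2 (-0.072) and Mvk (0.058) in KCl against Bic, and Insig2 (-0.055) and Lss (0.013) under Bic. Under KCl, Tm7sf2 was -0.100, -0.148 and -0.145 with quantile, normexp and spike-in scaling and Srebf1 was -0.169, -0.0825 and -0.134, with -0.0078 with slide as a block; Insig2 was -0.122 with normexp and -0.129 with spike-in scaling, Npc1 -0.127 with spike-in scaling, and Lss under Bic 0.016. In KCl against Bic, Scap was -0.082, -0.153 and -0.076 and Insig2 -0.027, -0.137 and -0.162 with quantile, normexp and spike-in scaling, Npc1 0.240 with normexp and 0.0496 with slide as a block, and Mvk 0.0034 with slide as a block. Without 1 array, Insig2 (-0.00038 to 0.032) and Lss (-0.017 to 0.0088) under Bic, Tm7sf2 (-0.030 to 0.056), Scap (-0.078 to 0.00071), Srebf1 (-0.012 to 0.061) and Npc1 (-0.013 to 0.071) under KCl, and Insig2 (-0.0093 to 0.023), Tm7sf2 (-0.073 to 0.013) and Npc1 (-0.033 to 0.0070) in KCl against Bic crossed 0. The cause was not tested. Among the 27 genes the replicate block ended the calls of Msmo1 (Bic), Mvd and Ggps1 (KCl) and changed no other call. For the KCl arrays, which share no slide with arrays of equal number, it is a check only.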

Other observations

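Among the 16 cholesterol genes higher under KCl, KCl replicate 2 was the lowest of the 3 KCl arrays for 9, replicate 3 for 6 and replicate 1 for 1. Idi1, for example, had 19.9, 17.4 and 20.5, and Insig1 0.896, 0.774 and 0.818. All 3 KCl arrays stayed above the control arrays for each of the 16.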
